A study of Mus musculus with 8 samples.

Results

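The C/EBP genes measured here were Cebpa, Cebpb, Cebpd, Cebpg and Cebpz, taken by name, which are 5 of the 55358 genes in the data. Of these, 4 passed the filter used for testing (2 or more libraries had to reach 1 FPKM, fragments per kilobase of transcript scaled to library depth), as did 13693 genes in all; Cebpa stayed under it. RNA was sequenced from cultures of mouse embryonic fibroblasts (MEFs, connective-tissue cells grown from embryos) in 4 groups of 2 libraries each. The groups were Arid5a-/- MEFs (KO) with 100 ng/ml interleukin 6 (IL-6) for 24 h, KO MEFs kept for 24 h without IL-6, wild-type (WT) MEFs with the same IL-6 treatment, and WT MEFs without it. The series was set up to look for long non-coding RNAs downstream of IL-6 and Arid5a, with breast cancer in view, and asks of every gene whether its level depends on IL-6, on Arid5a, or on both. The labels do not say which piece of Arid5a was removed, at what embryonic age the cells were taken, whether 1 or several embryos gave them, or whether each library had its own culture. The p-values below therefore weigh group differences against the scatter between these libraries, and that scatter may be technical. In bulk RNA, fewer cells of a type and less RNA per cell cannot be told apart.

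C/EBP proteins (CCAAT/enhancer-binding proteins) are transcription factors that bind DNA as dimers through a basic region followed by a leucine zipper (bZIP). IL-6 acts through its receptor, the shared chain gp130 and the factor STAT3, and C/EBP-beta and C/EBP-delta are classic mediators of its effect on acute-phase genes; C/EBP-beta was first described as a nuclear factor for IL-6. C/EBP-alpha drives differentiation of fat, liver and granulocytic cells, C/EBP-gamma lacks a transactivation domain and pairs with other bZIP proteins such as ATF4, and Cebpz shares the name only, since it encodes a CCAAT-binding factor without a bZIP region that is related to a yeast ribosome assembly protein. Arid5a binds the messenger RNAs of Il6, Stat3 and other inflammatory genes and protects them from decay.

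The stretch of coding sequence that the bZIP members share shows how close they are. The lines give the 60 bases that encode 20 residues of the basic region, read 5′ to 3′ on the coding strand of the GRCm38 annotation, with capitals at every base that equals the base of Cebpb, which itself is in lower case.
Cebpb: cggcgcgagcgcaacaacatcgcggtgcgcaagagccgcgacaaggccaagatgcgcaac
Cebpd: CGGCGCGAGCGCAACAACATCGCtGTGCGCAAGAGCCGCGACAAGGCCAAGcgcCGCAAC
Cebpa: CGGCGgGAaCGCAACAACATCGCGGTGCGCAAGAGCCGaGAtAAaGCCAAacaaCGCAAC
Cebpg: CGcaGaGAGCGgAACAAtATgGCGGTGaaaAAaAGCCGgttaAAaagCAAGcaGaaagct
These are codons 228 to 247 of Cebpb at chr2:167689703-167689762, codons 197 to 216 of Cebpd at chr16:15887913-15887972, codons 289 to 308 of Cebpa at chr7:35120283-35120342, all on the plus strand, and codons 68 to 87 of Cebpg at chr7:35050576-35050635 on the minus strand. Cebpd had 56 of the 60 bases and 19 of the 20 residues of Cebpb. Cebpa had 51 bases and 19 residues, and Cebpg had 35 bases and 13 residues. The best-matching window of Cebpz held 27 of the bases and 5 of the residues. The longest run of identical bases between the main transcripts was 29 for Cebpa and Cebpb, 27 for Cebpb and Cebpd, and 11 to 14 for the other 8 pairs. These runs are short beside the mean fragment length of 175 to 180 bases fitted to the libraries.

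Library depth lay between 37.25 and 46.85 M (mega) fragments, and 12570 to 12699 genes reached 1 FPKM in each library. The targeted gene Arid5a was still detected in the libraries labelled Arid5a-/-, at 8.47 and 8.15 FPKM in KO given IL-6 and 5.51 and 6.85 FPKM in untreated KO, against 30.9 and 31.0 FPKM in WT with IL-6 and 18.7 and 15.9 FPKM in untreated WT. All 7 fibroblast markers passed the filter, with a summed level of 3284 to 3532 FPKM in KO libraries and 2867 to 3667 FPKM in WT libraries; with IL-6, 3 of them were called higher and 4 lower in KO. Other cell markers differed widely between the genotypes. The 3 mesothelial markers Wt1, Upk3b and Msln summed to 836.4 to 883.3 FPKM in KO and 34.26 to 46.75 FPKM in WT, with Wt1 at 0 in every WT library, and all 3 were called higher in KO. The 4 epithelial markers summed to 20.8 to 21.2 FPKM in KO and 1.15 to 1.69 FPKM in WT, but Epcam overlapped between the genotypes. The 3 endothelial markers summed to 2.202 to 2.475 FPKM in KO and 0.0626 to 0.127 FPKM in WT. Nearly all of that KO sum was Kdr. Cdh5 went the other way, at 0 to 0.00704 FPKM in KO and 0.0129 to 0.0181 FPKM in WT, and Pecam1 overlapped. The 5 adipocyte markers summed to 0.138 to 0.470 FPKM in KO and 6.44 to 32.7 FPKM in WT, the WT sum being nearly all Fabp4. The 5 macrophage markers summed to 1.77 to 2.26 FPKM in KO and 2.31 to 3.49 FPKM in WT, most of it Cd68. Against that sum, Csf1r was higher in KO, at 0.230 to 0.271 FPKM, than in WT, at 0.0271 to 0.0758 FPKM. Adgre1 was at 0 in every library. Xist, the RNA of the inactive X chromosome, stood at 55.2 to 61.0 FPKM in KO libraries and 0.00139 to 0.00562 FPKM in WT libraries. Every KO against WT value below moves with these differences, whose part in it was not tested. Of all genes tested, 71.7% differed between KO and WT with IL-6 and 71% without it, so a call in these comparisons is the common case. A gene that reached 1 FPKM in libraries of 1 genotype only was tested because of that genotype. Its direction between the genotypes was therefore fixed by the filter, as for Wt1 and Upk3b.

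**Figure D1:**
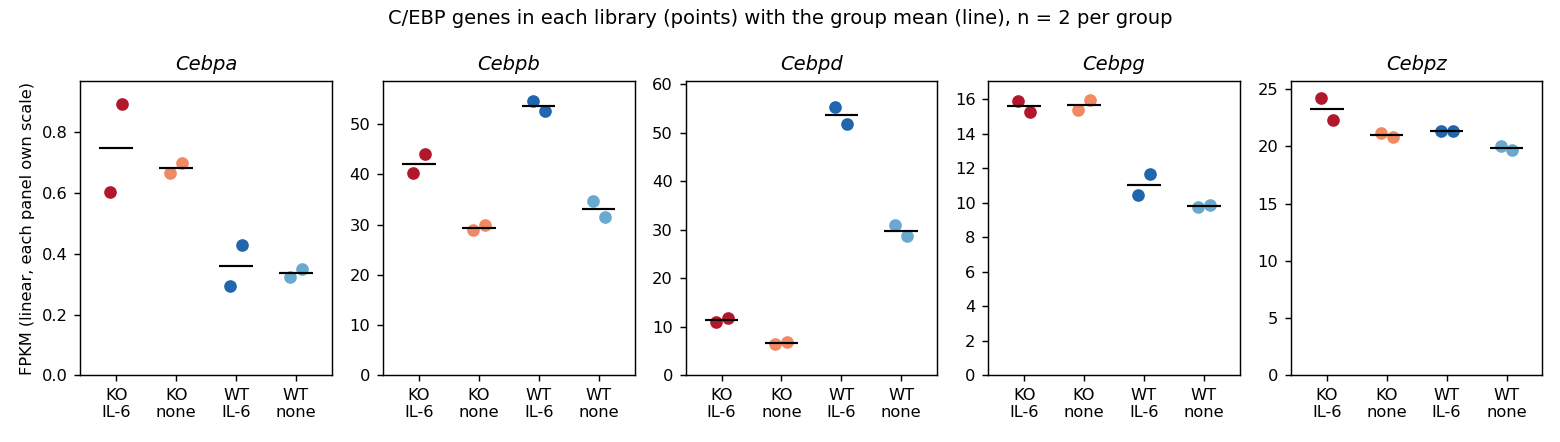
FPKM of the 5 C/EBP genes (linear vertical axes from 0, each panel on its own scale) in the 4 groups; points are the 2 libraries of a group and the line is their mean. Cebpd is low in both KO groups (6.48 to 11.8 FPKM) and high in both WT groups (28.6 to 55.3 FPKM), Cebpg and Cebpa stand higher in KO, and IL-6 groups of Cebpb and Cebpd stand above the untreated group of the same genotype.

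Cebpd, the acute-phase member of the family, had the largest genotype difference of the 5 genes (chr16:15887286-15891031, plus strand, 1 exon in the main transcript). It was called higher with IL-6 in both genotypes, though the KO call was lost under several other settings of the fit. It stood at 11.04 and 11.78 FPKM in KO with IL-6, 6.48 and 6.92 FPKM in untreated KO, 55.3 and 51.8 FPKM in WT with IL-6, and 30.9 and 28.6 FPKM in untreated WT. Every KO library was below every WT library, so that even KO cells given IL-6 stayed under untreated WT cells, and within each genotype both IL-6 libraries were above both untreated ones. The values rest on 820 to 1940 fragments per KO library and 4406 to 7719 per WT library.

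With IL-6, Cebpd averaged 11.4 ± 0.52 FPKM in KO and 53.6 ± 2.5 FPKM in WT (SD, n = 2 each), so KO held 21.3% of the WT level. The log2 change was -2.14 ± 0.06 (SE), with a Benjamini-Hochberg adjusted p of 6.437e-08 in limma, the moderated linear model fitted over all 8 libraries and all tested genes on log2(FPKM + 1). Without IL-6 the means were 6.70 ± 0.31 FPKM in KO and 29.8 ± 1.6 FPKM in WT (SD, n = 2 each), or 22.5%, with a log2 change of -2.0 ± 0.06 (limma adjusted p = 1.018e-07). A fall this large was uncommon: 385 of the tested genes (2.81%) fell at least as far in KO with IL-6, and 393 (2.87%) did without it.

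IL-6 raised Cebpd in both genotypes. In KO, IL-6 libraries averaged 1.7 times the untreated level, a log2 change of 0.69 ± 0.06 (limma adjusted p = 0.04007), and in WT 1.8 times, a log2 change of 0.83 ± 0.06 (limma adjusted p = 0.0002157). In KO, Cebpd was 1 of 3 genes called in the whole table (0.0219% of those tested), the other two being the secreted proteins Igfbp3, which binds insulin-like growth factors, and Spp1, osteopontin. The KO call was lost when any 1 of the 8 libraries was left out, with log2 changes of 0.64 to 0.73 and adjusted p of 0.05162 to 0.3208; the WT call held in all 8 such fits. Nearly all of the signal came from the coding transcript Cebpd-201, which made up 94.9 to 99.7% of the gene in each library.

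Cebpb, the member first described as a nuclear factor for IL-6, responded to IL-6 in WT (chr2:167688915-167690418, plus strand, 1 exon). By FPKM, which depends on the annotated transcript length, it was the highest of the 5 genes in 7 of the 8 libraries. It stood at 40.3 and 44.0 FPKM in KO with IL-6, 28.9 and 29.9 FPKM in untreated KO, 54.5 and 52.6 FPKM in WT with IL-6, and 34.6 and 31.6 FPKM in untreated WT. No groups overlapped, and the order from high to low was WT with IL-6, KO with IL-6, untreated WT and untreated KO. In WT, IL-6 raised it 1.62-fold, a log2 change of 0.68 ± 0.06 (limma adjusted p = 0.0004528), and 258 of the genes tested (1.88%) rose at least as much.

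In KO, the IL-6 mean of Cebpb was 1.43 times the untreated one, a log2 change of 0.50 ± 0.06, but this did not pass after adjustment (limma adjusted p = 0.1253, unadjusted p = 5.49e-05). Both IL-6 libraries lay above both untreated ones, and 88 genes (0.643%) had a KO change at least as large. Between genotypes, Cebpb fell to 42.1 ± 2.6 FPKM in KO with IL-6, against 53.6 ± 1.3 FPKM in WT with IL-6 (SD, n = 2 each), or 78.6% (log2 change -0.34 ± 0.06, limma adjusted p = 0.0014). Without IL-6 it was 29.4 ± 0.71 FPKM in KO and 33.1 ± 2.1 FPKM in WT (SD, n = 2 each), or 88.8%. That difference was a log2 change of -0.16 ± 0.06 and passed narrowly (limma adjusted p = 0.04027). It passed in 3 of the 8 fits without 1 library; it was lost without either untreated KO library, either WT library with IL-6 or the first untreated WT library, where the log2 change was -0.10. It was also lost when libraries were scaled to equal total FPKM (log2 change -0.12, adjusted p = 0.09562).

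The promoter of Cebpb, as RefSeq annotates it on GRCm38.p6, is shown because it carries several copies of the half-site of the cyclic AMP response element, a motif that CREB and ATF proteins bind. The window runs from 250 bases before to 50 bases after the start, on the plus strand at chr2:167688665-167688964, and capitals mark each TGACG on either strand (CGTCA is its reverse).
Cebpb promoter: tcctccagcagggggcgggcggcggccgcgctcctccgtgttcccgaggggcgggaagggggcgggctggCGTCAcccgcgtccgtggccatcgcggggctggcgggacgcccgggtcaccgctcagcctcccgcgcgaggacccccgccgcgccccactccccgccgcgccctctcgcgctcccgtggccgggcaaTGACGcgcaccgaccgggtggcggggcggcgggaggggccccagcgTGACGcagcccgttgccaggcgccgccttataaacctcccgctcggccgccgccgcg
TGACG occurred 3 times, with its first base 180, 53 and 7 bases before the start, and 20.8% of 32851 promoters of the same length hold at least 1 copy on either strand. The letters of the C/EBP motif TTGCNNAA (in 10.8% of promoters), the STAT motif TTCNNNGAA (8.3%), its tighter form TTCCNGGAA (1.15%), the full element TGACGTCA (1.79%), the C/EBP and ATF composite TGATGNAAT (0.965%) and CCAAT (37.4%) are not in this window on either strand. TGACG lies inside TGACGTCA, and TTCCNGGAA is one form of TTCNNNGAA, so these searches overlap.

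Cebpb kept most of its level in KO and Cebpd did not, and the balance between the family members differed between genotypes. The ratio of Cebpd to Cebpb in FPKM was 0.274 and 0.268 in KO given IL-6, 0.224 and 0.232 in untreated KO, 1.02 and 0.985 in WT with IL-6, and 0.894 and 0.907 in untreated WT. In these FPKM values, the 2 genes were thus near parity in every WT library and far from it in every KO library. The parity depends on the transcript length taken for Cebpd, given below. Of the summed FPKM of the 4 bZIP members, Cebpd made up 16.3 and 16.4% in KO given IL-6, 12.6 and 13.0% in untreated KO, 45.9 and 44.5% in WT with IL-6, and 40.9 and 40.7% in untreated WT. Cebpg took the reverse course, at 21.2 to 23.4% in KO given IL-6, 29.8 to 29.9% in untreated KO, 8.66 to 9.99% in WT with IL-6 and 12.9 to 14.0% in untreated WT. The sum itself was 67.8 and 71.9 FPKM in KO with IL-6, 51.4 and 53.4 FPKM in untreated KO, 120.5 and 116.6 FPKM in WT with IL-6, and 75.6 and 70.5 FPKM in untreated WT. In all 4 KO libraries the order of levels was Cebpb, Cebpz, Cebpg, Cebpd and Cebpa. In WT it was Cebpb, Cebpd, Cebpz, Cebpg and Cebpa, except that Cebpd stood above Cebpb in the first WT library with IL-6; the 2 genes' means there, both 53.6 FPKM, do not differ beyond their spread. Levels of different genes are set side by side per length of the annotated transcript. For Cebpd that length is 3746 bases in GENCODE and 2260 bases in RefSeq. This difference bears on its rank, its ratio to Cebpb, the shares and the sums, but not on its changes.

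**Figure D2:**
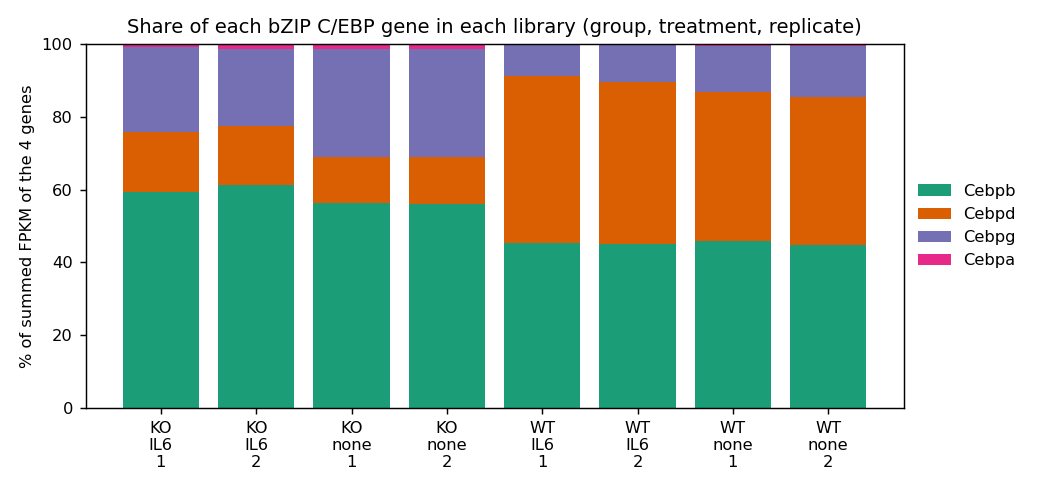
Share of each of the 4 bZIP members in their summed FPKM (vertical axis, %) in each of the 8 libraries. Cebpd takes 12.6 to 16.4% in the KO libraries and 40.7 to 45.9% in the WT libraries, and Cebpg 21.2 to 29.9% in KO and 8.66 to 14.0% in WT.

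Cebpg, the dimer partner without a transactivation domain, was higher in KO and was not called for IL-6 in either genotype (chr7:35046422-35056573, minus strand, 2 exons in the main transcript). It stood at 15.9 and 15.3 FPKM in KO with IL-6, 15.3 and 15.9 FPKM in untreated KO, 10.4 and 11.7 FPKM in WT with IL-6, and 9.73 and 9.88 FPKM in untreated WT. All KO libraries were above all WT libraries; the KO groups overlapped each other and the WT groups did not. With IL-6 it averaged 15.6 ± 0.45 FPKM in KO and 11 ± 0.85 FPKM in WT (SD, n = 2 each), a log2 change of 0.46 ± 0.06 (limma adjusted p = 0.0002913). Without IL-6 it averaged 15.6 ± 0.41 FPKM in KO and 9.81 ± 0.11 FPKM in WT (SD, n = 2 each), a log2 change of 0.62 ± 0.06 (limma adjusted p = 5.705e-05). Genes that rose at least as much in KO were common, at 23.4% of those tested with IL-6 and 17.1% without it. The log2 change with IL-6 was -0.0048 ± 0.06 in KO (limma adjusted p = 0.9949) and 0.15 ± 0.06 in WT (limma adjusted p = 0.1438). The long coding transcript Cebpg-202 made up 76.2 to 84.4% of the gene.

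The promoter of Cebpg (RefSeq, GRCm38.p6, minus strand, chr7:35056517-35056816) is shown for its CCAAT boxes, the element after which the family is named and which the factor NF-Y binds. Capitals mark CCAAT, read here from its reverse, ATTGG.
Cebpg promoter: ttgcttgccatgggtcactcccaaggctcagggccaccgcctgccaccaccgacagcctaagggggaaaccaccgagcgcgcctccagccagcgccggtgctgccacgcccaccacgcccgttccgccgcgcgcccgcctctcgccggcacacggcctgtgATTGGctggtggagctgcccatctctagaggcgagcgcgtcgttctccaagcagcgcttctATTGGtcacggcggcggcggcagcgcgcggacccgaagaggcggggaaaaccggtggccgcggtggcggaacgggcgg
CCAAT occurred 2 times, with the first base of the match 89 and 28 bases before the start, and 37.4% of all promoters hold at least 1 copy. None of the other 6 motifs listed for Cebpb, TGACG included, has its letters in this window. For the same 7 motifs the promoter of Cebpa held no match. Of the NF-Y subunits, Nfya stood at 31.8 FPKM in KO with IL-6 and 14.7 FPKM in WT with IL-6 and rose in KO (log2 change 1.07, limma adjusted p = 1.79e-06), while Nfyb fell (16.2 FPKM in KO and 27.7 FPKM in WT, log2 change -0.74, limma adjusted p = 2.41e-05). Nfyc had 41.3 FPKM in KO and 44.1 FPKM in WT with IL-6 and was not called.

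Cebpa, the differentiation factor of fat and liver, was scarcely expressed (chr7:35119293-35121928, plus strand, 62719 bases from Cebpg). It stood at 0.604 and 0.893 FPKM in KO with IL-6, 0.665 and 0.700 FPKM in untreated KO, 0.295 and 0.428 FPKM in WT with IL-6, and 0.324 and 0.350 FPKM in untreated WT. Every KO library was above every WT library, and the IL-6 and untreated libraries of each genotype overlapped. These values stand for 52.9 to 93.8 fragments per KO library and 28 to 37 per WT library. The KO mean was 2.07 times the WT mean with IL-6 and 2.03 times without it. In a fit with no filter, over 27454 genes, Cebpa was called higher in KO with IL-6 (log2 change 0.36 ± 0.09, limma adjusted p = 0.02608) and without it (0.33 ± 0.09, limma adjusted p = 0.03417), where 40% and 40.2% of those genes were called. On the log2(FPKM + 1) scale these values understate the fold of so low a gene. Cebpa-201 made up 37.9 to 97.9% of the gene from library to library, so its transcripts cannot be compared at this depth.

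Cebpz, the ribosome-related gene that shares only the name, hardly varied (chr17:78919006-78937066, minus strand, 16 exons). It stood at 24.2 and 22.3 FPKM in KO with IL-6, 21.2 and 20.9 FPKM in untreated KO, 21.4 and 21.3 FPKM in WT with IL-6, and 20.1 and 19.7 FPKM in untreated WT. The groups compared did not overlap, but their ranges lay close together, and none of the differences passed in limma. The log2 change was 0.12 ± 0.05 for KO against WT with IL-6 (adjusted p = 0.06369) and 0.08 ± 0.05 without it (adjusted p = 0.2071), and for IL-6 it was 0.14 ± 0.05 in KO (adjusted p = 0.5915) and 0.10 ± 0.05 in WT (adjusted p = 0.2508). The first of these passed when libraries were scaled to equal total FPKM (log2 change 0.21, limma adjusted p = 0.009542) and without the second KO library with IL-6 (log2 change 0.18, limma adjusted p = 0.02378). Close to equal parts of its signal were assigned to the coding transcript Cebpz-201, at 44.3 to 49.7%, and to Cebpz-204, annotated as a target of nonsense-mediated decay, at 46.9 to 52.2%. Its 3′ end overlaps the neighbouring gene Cebpzos on the opposite strand over 1301 bases (chr17:78919006-78920306). The kit marks strand but the counting is not stated to use it, so reads there are uncertain. Cebpzos, named for its place opposite Cebpz, averaged 19.9 FPKM in KO and 24.2 FPKM in WT with IL-6 and fell in KO (log2 change -0.27, limma adjusted p = 0.00059), whereas Cebpz was not called.

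Across the family, 1 of the 4 tested members was called for IL-6 in KO, against 0.0219% of all genes, and 2 of 4 in WT, against 15.7%. Both WT calls were rises, a direction called for 8.3% of genes, and no member was among the 7.41% called lower. In WT all 4 members had both IL-6 libraries above both untreated ones, as had 27.5% of all genes, and in KO 3 of 4 had, as had 19.6%. Between genotypes 3 of 4 members were called with IL-6 and 3 of 4 without it, shares close to the 71.7% and 71% of all genes; Cebpb and Cebpd were the lower ones in both, a direction called for 34.8% of genes with IL-6 and 34.5% without it, and Cebpg was the higher one, as were 36.9% with IL-6 and 36.4% without it. KO libraries lay wholly below WT libraries for Cebpb and Cebpd, as for 41.9% of genes with IL-6 and 41.7% without it, and wholly above them for Cebpg and Cebpz, as for 43.9% with IL-6 and 43.3% without it. The size of the IL-6 change was not shown to differ between genotypes for any member. The difference, KO minus WT, was -0.18 ± 0.09 on the log2 scale for Cebpb (limma adjusted p = 0.292), -0.14 ± 0.09 for Cebpd (0.4245), -0.16 ± 0.09 for Cebpg (0.3468) and 0.04 ± 0.07 for Cebpz (0.7817). None of the 4 members had an unadjusted limma p under 0.05 for this difference, while 2915 of the 13693 genes tested had. After adjustment, 6.06% of all genes were called for it, 3.52% lower and 2.54% higher. Scaling libraries to equal total FPKM kept the sign of each of these 4 values. The KO against WT comparisons with and without IL-6 use separate libraries, while the 2 IL-6 comparisons share libraries with them.

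**Figure D3:**
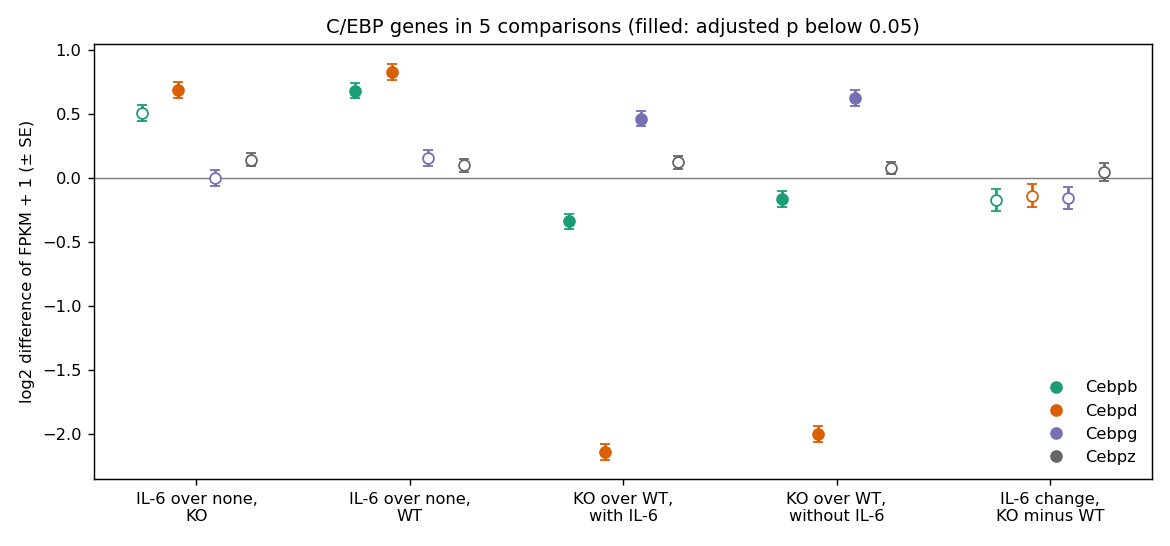
Log2 difference of FPKM + 1 with its SE (vertical axis) for the 4 tested C/EBP genes in 5 comparisons; filled points passed at an adjusted p below 0.05 and open points did not. Cebpd lies near -2 in both KO over WT comparisons, Cebpg above 0 in both, and in the last column, the difference between the IL-6 changes, every point is open.

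Genes whose levels followed each member most closely over the 8 libraries were found by Pearson's correlation of log2(FPKM + 1), given as a description, since all genes share the same libraries and genotype split. Nearest to Cebpd were Gripap1 (r = 0.996), an endosomal protein gene, Klhl21 (r = 0.994), a ubiquitin ligase adaptor, and Spp1 (r = 0.993), and 972 genes reached an r of 0.95. Spp1 had 112.5 and 108.3 FPKM in KO with IL-6, 73.4 and 74.1 FPKM in untreated KO, 384.6 and 380.0 FPKM in WT with IL-6, and 279.3 and 284.1 FPKM in untreated WT, the same order of groups as Cebpd. Nearest to Cebpg were Casp2 (r = 0.995), Rnf121 (r = 0.995) and Eif3c (r = 0.994), and 1973 genes reached 0.95. Cebpb had fewer close followers, with 3 genes at 0.95, among them the translation initiation factor gene Eif4b (r = 0.973), Gm9843 (r = 0.955) and 1110038B12Rik (r = 0.955). For Cebpz only Ppif, encoding the mitochondrial cyclophilin, reached 0.95 (r = 0.951), followed by Gm9616 (r = 0.939) and Kdsr (r = 0.932). Between members, r was 0.68 for Cebpb and Cebpd, -0.862 for Cebpd and Cebpg, and 0.657 for Cebpg and Cebpz.

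The 3′ untranslated region is where RNA-binding proteins such as Arid5a act, and the pentamer ATTTA, the core of AU-rich elements, was counted there as a description. The 3′ untranslated region of Cebpd-201 is 2900 bases long in GENCODE and holds 7 copies, and 35.4% of 3502 transcripts with a region of like length hold as many. Cebpg-202 holds 10 copies in 3962 bases (28.9% of 2168 like transcripts hold as many), Cebpz-201 holds 3 in 875 bases (22.4% of 5109), and Cebpb-201 (506 bases) and Cebpa-201 (1430 bases) hold none. Cebpd-201 and Cebpg-202 thus both carry ATTTA at counts that are common for their length. Whether these copies bear on the levels in KO was not tested.

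The nearest relatives of the family were read from 1 list of bZIP genes. Cebpe, the granulocyte member, was listed at 0 in 7 libraries and at 0.0464 FPKM in the first untreated WT library, and the granulocyte marker S100a9 was at 0 in every library. Ddit3 (CHOP), the stress-induced C/EBP homologue that blocks its partners, averaged 45.5 FPKM in KO and 75.4 FPKM in WT with IL-6, and 48.9 FPKM in KO and 83.3 FPKM in WT without it. It fell in KO in both (log2 changes -0.72 and -0.76, limma adjusted p = 3.69e-05 and 2.79e-05). Of 13 bZIP partners tested, 4 rose and 8 fell in KO with IL-6, where 36.9% of all genes were called higher and 34.8% lower. The median log2 change of the 13 was -0.68 beside 0.01 over all genes. Nfil3, a bZIP repressor, averaged 15.2 FPKM in KO and 58.2 FPKM in WT with IL-6 (log2 change -1.87, limma adjusted p = 2.16e-08), and Hlf 0.270 FPKM in KO and 4.71 FPKM in WT (-2.19, limma adjusted p = 1.14e-05). Hlf stayed under 1 FPKM in KO and passed the filter only through WT libraries. Its lower level in KO, counted among the 8, was therefore fixed by the filter. Atf5 went the other way, with 33.6 FPKM in KO and 9.32 FPKM in WT (1.75, limma adjusted p = 6.7e-08). With IL-6 in WT, 5 of the 13 rose and 1 fell, beside 8.3% and 7.41% of all genes. Nfil3 was among those that rose (log2 change 1.16, limma adjusted p = 1.97e-05).

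Genes upstream of Cebpb and Cebpd, the IL-6 receptor, JAK and STAT list, were mostly lower in KO under IL-6. Of 16 tested, 1 rose and 11 fell, beside 36.9% and 34.8% of all genes, with a median log2 change of -1.12. Socs1, counted among the 11, averaged 0.859 FPKM in KO and 4.92 FPKM in WT with IL-6. It passed the filter only through WT libraries, so its lower level in KO was fixed by the filter. The IL-6 receptor chain Il6ra averaged 1.64 FPKM in KO and 8.29 FPKM in WT (log2 change -1.81, limma adjusted p = 2.43e-07), the kinase Jak1 35.4 FPKM in KO and 78.1 FPKM in WT (-1.12, limma adjusted p = 9.29e-08), and the nuclear NF-kappaB cofactor Nfkbiz 6.11 FPKM in KO and 30.3 FPKM in WT (-2.14, limma adjusted p = 1.88e-08). Stat3, the direct transducer, was the 1 that rose (69.1 FPKM in KO, 62.9 FPKM in WT, log2 change 0.14, limma adjusted p = 0.0123). In WT, IL-6 raised 11 of the 16, beside 8.3% of all genes. Among the 11 were the feedback inhibitor Socs3 (log2 change 1.35, limma adjusted p = 2.87e-05) and the receptor gene Osmr (1.17, limma adjusted p = 2.38e-05). For 8 of the 16, and for none of the C/EBP members, the IL-6 change was called lower in KO than in WT, beside 3.52% of all genes. With libraries scaled to equal total FPKM, 5 of the 16 rose and 11 fell in KO with IL-6. Of all 13693 genes tested, 5799 rose and 4080 fell with that scaling.

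Acute-phase and inflammatory genes are the classic outputs of C/EBP-beta and C/EBP-delta. Of 24 listed, 16 passed the filter, and nearly all of those 16 were called in WT and between genotypes. Fga, Fgb, Fgg and Crp were at 0 in every library, and Saa1, Saa2, Orm2 and Csf3 did not pass the filter. In WT, IL-6 raised 15 of 16 tested, beside 8.3% of all genes, with a median log2 change of 1.33 beside -0.002 over all genes. In KO with IL-6, 14 of 16 were lower than in WT and 2 higher (Hp and Mmp13), beside 34.8% and 36.9% of all genes, with a median of -1.85. Lcn2, Serpina3n, Orm1 and Nos2 stayed under 1 FPKM in KO and passed the filter only through WT libraries. Their lower level in KO was therefore fixed by the filter. The serum amyloid gene Saa3 averaged 8.30 FPKM in KO and 594 FPKM in WT with IL-6 (log2 change -6.0, limma adjusted p = 3.32e-09), the siderophore-binding Lcn2 0.635 FPKM in KO and 215 FPKM in WT (-7.06, limma adjusted p = 4.38e-09), and the chemokine Ccl2 75.6 FPKM in KO and 932 FPKM in WT (-3.60, limma adjusted p = 2.3e-09). The IL-6 change of 12 of the 16 was called lower in KO (median difference -1.18), beside 3.52% of all genes. That of Cebpd and Cebpb was not shown to differ, and it was not tested against that of these genes. Lcn2, Serpina3n, Orm1 and Nos2 are among the 12, and at their KO levels log2(FPKM + 1) understates a fold. Of the 109 genes of all 8 lists that were tested, none was called for IL-6 in KO by limma. An unadjusted p under 0.05 was reached by 26 of them, and by 1025 of all 13693 genes tested.

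Genes tied to the other members were read in the same way. Over all genes, 36.9% were called higher and 34.8% lower in KO with IL-6, the shares to set beside each list count below. For Cebpa, 10 of 20 listed adipogenic genes were tested, and 2 were higher and 6 lower in KO with IL-6 (median log2 change -0.39). The lipase Lpl averaged 100 FPKM in KO and 0.893 FPKM in WT (5.74, limma adjusted p = 2.18e-10) and the receptor Pparg 6.81 FPKM in KO and 0.161 FPKM in WT (2.75, limma adjusted p = 7.09e-07), against Fabp4 at 0.0792 FPKM in KO and 30.8 FPKM in WT (-4.88, limma adjusted p = 1.42e-08). Lpl and Pparg, the 2 higher genes, passed the filter only through KO libraries. Fabp4 and Ebf1 (0.058 FPKM in KO and 6.16 FPKM in WT), both among the 6 lower, passed only through WT libraries. The directions of these genes were therefore fixed by the filter. Adipoq, Plin1, Cidec and Lep, markers of mature fat cells, did not pass the filter. For Cebpg and its partner ATF4, 14 of 20 genes of the integrated stress response rose and 4 fell in KO with IL-6, with a median of 0.89, among them Asns, asparagine synthetase, at 49.4 FPKM in KO and 13.7 FPKM in WT (1.78, limma adjusted p = 3.35e-08), and Pycr1, of proline synthesis, at 22.7 FPKM in KO and 3.20 FPKM in WT (2.50, limma adjusted p = 2.69e-08). Slc7a11, counted among the 14, averaged 0.913 FPKM in KO and 0.518 FPKM in WT with IL-6. It passed the filter only through untreated KO libraries, at a mean of 1.11 FPKM. Ddit3, of the same response, fell, as given above. For Cebpz, 13 of 20 ribosome biogenesis genes rose and none fell in KO with IL-6 (median 0.28), among them the nucleolar Fbl, the one with the smallest p (66.7 FPKM in KO, 41.8 FPKM in WT, 0.66, limma adjusted p = 9.12e-06). Of 16 genes that act on C/EBP proteins or are close relatives of such genes, 6 rose and 5 fell, or 8 and 2 with equal total FPKM. Trib2, a pseudokinase that directs C/EBP-alpha to degradation, averaged 3.70 FPKM in KO and 10.7 FPKM in WT with IL-6 (-1.31, limma adjusted p = 3.88e-05). Its relative Trib3 averaged 14.5 FPKM in KO and 4.33 FPKM in WT (1.54, limma adjusted p = 8.57e-07).

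**Figure D4:**
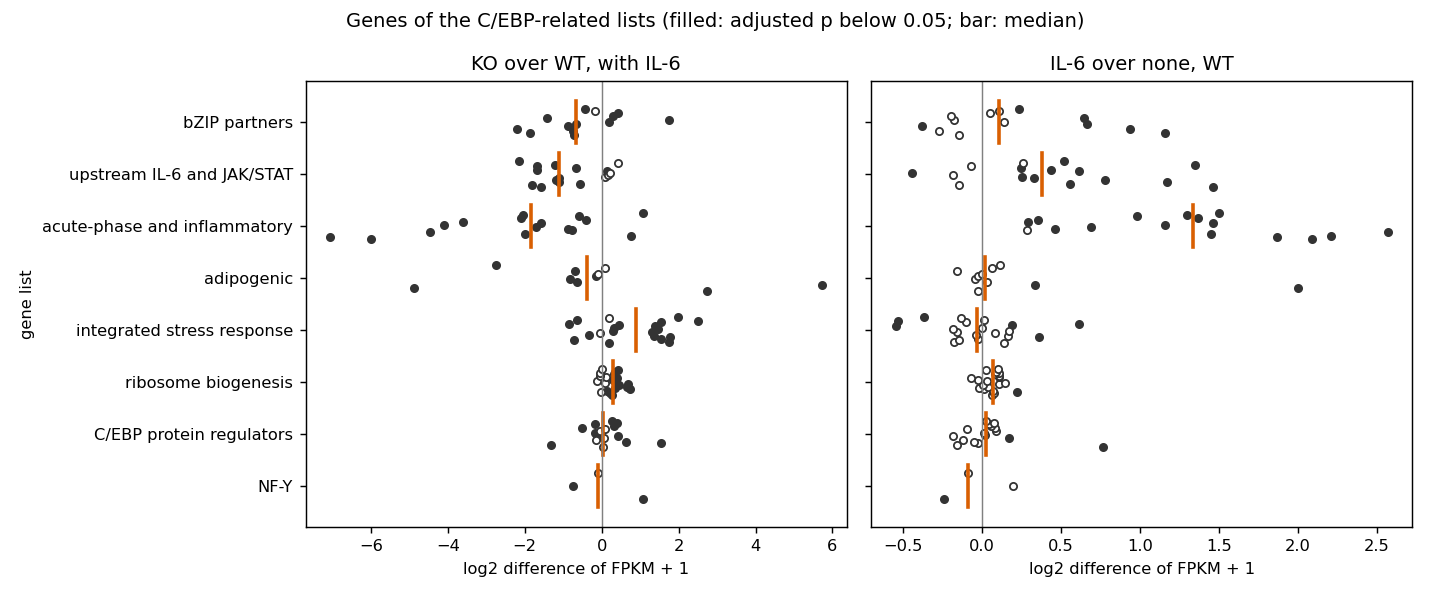
Log2 difference of FPKM + 1 (horizontal axes, each panel on its own scale) of every tested gene in 8 lists around the C/EBP family; filled points passed at an adjusted p below 0.05 and the bar is the list's median. Acute-phase genes lie mostly below 0 for KO over WT with IL-6 (median -1.85) and above 0 for IL-6 in WT (median 1.33), and the stress response genes mostly above 0 in KO (median 0.89).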

How the data were processed

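The deposited values were FPKM per transcript, made by the authors with HISAT2 and Cufflinks 2.2.1 on GRCm38.p6, per the submitters' processing notes; RNA was prepared with a column kit and a stranded mRNA library kit, per the labels' protocols. The 142869 transcripts were added up to 55358 genes, taking the gene from the transcript's name. Low values lay on steps of whole fragments: with a depth and fragment length fitted per library, 93.3 to 94.9% of 2316 to 2718 low values fell within 0.1 of a whole number, and fragment numbers given here come from that fit. No pair of libraries was identical, and libraries of 1 group correlated at 0.9927 to 0.9935.

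The 13693 genes that reached 1 FPKM in 2 or more libraries were tested with limma 3.58.1 (R 4.3.3) on log2(FPKM + 1), with a pseudocount of 1, 4 group means over 8 libraries, 4 residual degrees of freedom, an intensity trend and Benjamini-Hochberg adjustment, called below 0.05. Fold changes on this scale understate those of low genes. The procedure was tested on simulated data. Members and lists were chosen with earlier results of these data known. The text names the 5 members, Cebpe, Ddit3 and Arid5a, and the 3 genes most like each member. It also names up to 4 genes of smallest p of each list. Every list gene whose IL-6 change differed between genotypes was added in the closing section. Cebpzos, Xist, Igfbp3, Mmp13, Socs1, Slc7a11 and the marker genes were named after values were seen. Same-numbered libraries did not deviate together, so replicate numbers pair no libraries. Alternatives were 2 other scalings, 2 pseudocounts, 2 filters, no trend, the replicate block, only the groups compared, and leaving out each library. Coordinates and transcripts are GENCODE M21 on GRCm38; promoters are RefSeq on GRCm38.p6 and were found for 3 of the 5 members. Motifs were searched on both strands. Tables were read with pandas 2.3.3 and numpy 2.4.6 under Python 3.11.15, and figures drawn with matplotlib 3.10.9.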

Additional observations from a re-analysis of the deposited data

Results flagged for a closer look

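The IL-6 change of the 4 tested C/EBP members was not shown to differ between the genotypes. Of the 109 list genes tested around them, 26 had an IL-6 change that differed by the interaction term of limma, beside 6.06% of all genes. The change was lower in KO than in WT for 25 and higher for 1, Slc7a5. Values are KO minus WT on the scale of log2(FPKM + 1). Of the acute-phase and inflammatory genes, Serpina3n had -2.51 (adjusted p = 0.000244), Hp -1.96, Saa3 -1.54, Lcn2 -1.43, Orm1 -1.42, Ptx3 -1.34, Mmp13 -1.2, Nos2 -1.16, Mmp3 -0.923, Ptgs2 -0.564 and Ccl2 -0.453. The lipid carrier gene Fabp4 had -2.04 and the bZIP repressor gene Nfil3 -0.98 (adjusted p = 0.000561). Serpina3n, Lcn2, Orm1, Nos2 and Fabp4 averaged under 1 FPKM in both KO groups, where log2(FPKM + 1) understates a fold. Lcn2 averaged 0.635 FPKM with IL-6 and 0.191 FPKM without it in KO, and 215 FPKM and 57.8 FPKM in WT. For these 5 genes the value does not show that the fold with IL-6 was smaller in KO. In the IL-6 pathway the difference was -1.5 for Il6, which the acute-phase list also holds, -0.796 for Socs3, -0.702 for Lifr, -0.685 for Osmr, -0.507 for Stat5a, -0.423 for Il6st, -0.418 for Stat3 and -0.293 for Jak1. In the stress response it was -0.712 for Cth, -0.46 for Asns, -0.284 for Atf4 and -0.261 for Slc3a2, against 0.333 for Slc7a5 (adjusted p = 0.0344), whose log2 change with IL-6 was -0.22 in KO and -0.55 in WT. Igfbp3, called for IL-6 in KO like Cebpd, had -0.641, with log2 changes of 0.86 in KO and 1.5 in WT. Marker levels of other cell types differ between the genotypes as given above, and their part in these values was not tested.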

How the results depend on the processing

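Depth limits Cebpa, which has no filtered test and therefore no alternatives here. Quantile normalization and a pseudocount of 0.1 left every member on its side of the threshold. Cebpd for IL-6 in KO (0.69) lost its call with a pseudocount of 5 (log2 0.49, adjusted p = 0.06589), and at 0.69 with no filter (0.07362), no trend (0.09669) and only the groups compared (0.4275); without 1 library it ranged from 0.64 to 0.73. Cebpb for KO against WT without IL-6 lost its call at equal totals (-0.12, adjusted p = 0.09562), and at -0.16 with no filter (0.0807), no trend (0.0626) and only the groups compared (0.05595); without 1 library it ranged from -0.23 to -0.10. Cebpz for KO against WT with IL-6 gained a call at equal totals (0.21), and ranged from 0.061 to 0.18 without 1 library. A pair of values near 0 changed sign without 1 library: Cebpg for IL-6 in KO, from -0.032 to 0.023 (0.02253 and 0.02025 without the second KO library with or without IL-6), and the difference between IL-6 changes of Cebpz, from -0.015 to 0.10.

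Genes called for IL-6 in KO numbered 7 with no filter, 5 at a filter of 5 FPKM, 0 with only the groups compared (3 in the fit of all groups), and 0 to 4 without 1 library. For IL-6 in WT, 2150 became 938 with only the groups compared and 1165 to 1774 without 1 library. The difference between changes gave 521 with no filter and 383 to 523 without 1 library, against 830. At equal totals the split of higher to lower calls was 818 to 1530 for IL-6 in WT (1136 to 1014 without scaling) and 478 to 390 for the difference (348 to 482). With the replicate block, Cebpd for IL-6 in KO (0.69, adjusted p = 0.1589) and Cebpb for KO against WT without IL-6 (-0.16, adjusted p = 0.06028) were not called, and no other member's call changed; the numbers did not pair libraries (correlations of deviations from -0.097 to 0.055). A library left alone in its group was assumed to vary like the other groups. The cause of these changes was not tested.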
